A study of Mus musculus with 8 samples.

Results

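The 10 genes described here, Pax1, Pax9, Nkx3-2, Meox1, Meox2, Foxc1, Foxc2, Twist1, Twist2 and Tbx18, encode transcription factors that act early in the paraxial mesoderm and its sclerotome, the tissue from which ribs form. They were taken by name, with every probe set (the group of array probes designed against a transcript) that the platform annotation assigns to a single one of these symbols. All 10 had a probe set, among 18193 genes named on the array, and together they had 16 of the 45037 probe sets used. RNA came from chondrocytes, the cells of cartilage, dissociated with enzymes from rib cages of FVB mouse embryos at E18.5, late in gestation. In each of 4 litters the embryos were sorted by genotype into wild type (control) and Hoxd4 transgenic, and RNA of each went on 1 array, so there were 4 arrays per group and 8 in all. What drives the transgene, in which cells, and how many embryos of which sex stand behind an array is not stated in these sources. The deposited values are MAS5 signals, linear probe set intensities scaled to a common trimmed mean per array, and their depth is limited by the number of arrays.

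In the embryo, paraxial mesoderm beside the neural tube is cut into somites, and the ventral part of each somite turns into sclerotome under hedgehog signals from the notochord. Pax1 and Pax9 then act together in sclerotome cells and switch on Nkx3-2, which helps to start cartilage differentiation through Sox9. Meox1 and Meox2 act across the whole somite, Foxc1 and Foxc2 are needed to form somites from mesoderm, and Tbx18 keeps the front and back parts of each somite apart. Twist1 and Twist2 are basic helix-loop-helix factors of undifferentiated mesenchyme. By the age sampled here the rib cartilage has long been laid down, so the first question is which of these early factors still gave a signal above background.

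The RNA carried the labelled identity: all 12 chondrocyte markers, among them Col2a1, Acan and Sox9, lay above background, and their summed signal ranged from 316422 to 345690 in control and from 329537 to 357307 in transgenic arrays. Markers of other cells of the rib cage were above background too, with all 8 perichondrium and fibroblast, all 9 skeletal muscle and all 7 endothelium genes, so a signal of any of the 10 genes may come from cells other than chondrocytes. In bulk RNA, fewer cells of a type and less RNA per cell cannot be told apart. The overexpressed gene could be read only from 2 probe sets that the annotation shares between Hoxd4 and its neighbour Hoxd3. The brighter one gave 27.3, 42.6, 4.10 and 256 in the control arrays and 94.1, 415, 172 and 13.0 in the transgenic arrays of litters 1, 2, 3 and 4, and thus went against the labels in litter 4. The other averaged 26.5 in control and 20.6 in transgenic arrays, under the background bar of 83.5. The summed signal of 3 Y-linked genes was 756 to 1512 in control and 1719 to 2695 in transgenic arrays. Xist, the X-inactivation RNA, gave 5778 to 13760 in controls and 47.2 to 8209 in transgenics. Levels that differ between the sexes therefore moved with the genotype label beside every comparison below, and their part in those comparisons was not tested except where a fit with the Xist level is named.

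Promoters of 8 of the 10 genes were matched by symbol in a RefSeq table of mouse assembly GRCm38.p6, each running from 250 bases before to 50 bases after an annotated start. For Pax1 and Pax9 that start lies inside the gene, with windows from 147364744 and 56695221 and gene spans from 147361930 and 56691693. Their windows therefore do not describe the outer end of these genes. Foxc2 and Meox1 were not matched. The 4 shown are those of Foxc1 and Twist1, for which a probe set ran the same way in all 4 litters, and of Meox2 and Tbx18, which hold the letters TAAT, the core bound by many homeobox proteins such as the one encoded by the transgene. Capitals mark TAAT on either strand (TAAT or ATTA). They lie at chr13:31806396-31806695 (plus strand), chr12:33957421-33957720 (plus strand), chr12:37108290-37108589 (plus strand) and chr9:87731211-87731510 (minus strand), and each is written 5′ to 3′ along its gene.
Foxc1: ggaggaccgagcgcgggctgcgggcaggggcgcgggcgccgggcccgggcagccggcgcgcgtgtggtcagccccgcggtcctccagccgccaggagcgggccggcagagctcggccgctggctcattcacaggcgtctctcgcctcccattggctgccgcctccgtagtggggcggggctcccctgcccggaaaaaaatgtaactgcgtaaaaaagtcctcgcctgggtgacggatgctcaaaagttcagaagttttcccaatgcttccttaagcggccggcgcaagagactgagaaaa
Twist1: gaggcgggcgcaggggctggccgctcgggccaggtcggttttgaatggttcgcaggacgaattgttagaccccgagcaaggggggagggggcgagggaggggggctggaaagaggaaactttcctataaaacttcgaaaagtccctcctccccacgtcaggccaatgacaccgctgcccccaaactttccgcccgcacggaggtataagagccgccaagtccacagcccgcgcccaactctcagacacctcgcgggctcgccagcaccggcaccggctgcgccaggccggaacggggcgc
Meox2: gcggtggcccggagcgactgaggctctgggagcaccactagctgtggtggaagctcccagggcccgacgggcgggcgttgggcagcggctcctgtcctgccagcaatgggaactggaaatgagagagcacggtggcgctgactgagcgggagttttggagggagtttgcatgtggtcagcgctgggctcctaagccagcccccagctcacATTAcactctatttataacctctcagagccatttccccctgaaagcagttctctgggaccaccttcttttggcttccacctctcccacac
Tbx18: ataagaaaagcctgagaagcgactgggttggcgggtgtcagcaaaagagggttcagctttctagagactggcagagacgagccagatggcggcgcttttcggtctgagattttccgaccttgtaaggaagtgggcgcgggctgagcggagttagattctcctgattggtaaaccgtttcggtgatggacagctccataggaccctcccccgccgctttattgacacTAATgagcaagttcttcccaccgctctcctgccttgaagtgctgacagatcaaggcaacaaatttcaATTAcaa
TAAT was found in 5 of the 8 promoters (1 match each in Meox2, Nkx3-2, Pax9 and Twist2 and 2 in Tbx18) and in 58% of all 32851 promoters of the same length. The motif CANNTG, the E-box that Twist proteins bind with their partners, was found in 4 of the 8 (Meox2, Nkx3-2, Pax9 and Tbx18) and in 72.3% of all. A match of TAAT on either strand cannot share a base with a match of CANNTG, so the 2 counts are of separate letters. The Foxc1 and Twist1 windows held neither motif and had a GC content of 67.3% and 66.0%, against a median of 52.7% over all promoters. Neither trait was theirs alone. Pax1 (57.3%) also held neither motif, and GC content was 66.7% for Nkx3-2, 64.7% for Twist2 and 60.7% for Meox2. It was 51.7% for Tbx18 and 47.0% for Pax9. A match describes letters in these windows and is no measured site.

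Background was read from 80 probe sets of olfactory and vomeronasal receptors, genes of sensory neurons in the nose. Their mean signal over 8 arrays had a median of 24.1 and a 95th percentile of 83.5, which served as the bar. Of the 16 probe sets 10 lay above it, where 54.6% of all probe sets did. Counted by the brightest probe set of a gene, 8 of the 10 genes lay above it, where 64.2% of the 18193 named genes did. For single arrays the bar was that array's own 95th percentile of the receptor probe sets, 79.0 to 103 over the 8 arrays. Those 10 were also the ones bright enough for the test of genotype, which took probe sets with a mean above 106. Brightness depends on the probes as well as on the transcript, so signals are set against this bar and never used to rank the genes. A probe set under the bar shows only that this probe set gave no signal above it.

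**Figure D1:**
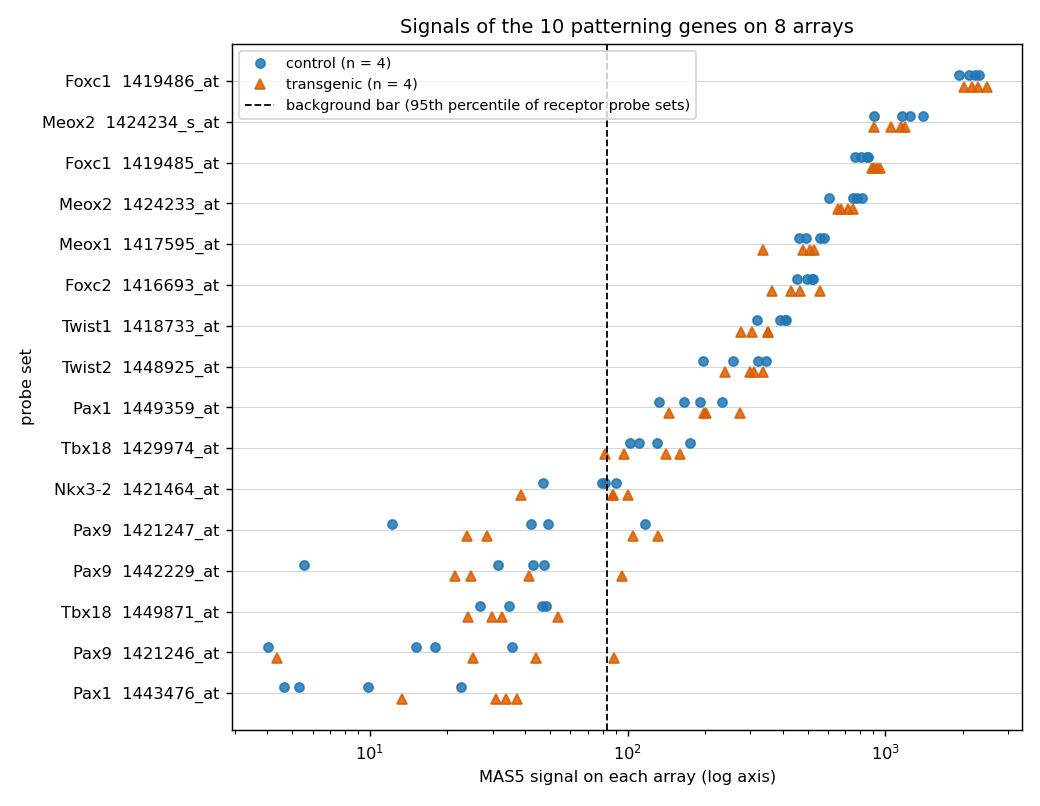
Each row is a probe set of one of the 10 genes and each symbol its MAS5 signal on 1 array (log axis), with 4 control arrays as circles, 4 transgenic arrays as triangles and the background bar of 83.5 as a dashed line. The probe sets of Foxc1, Foxc2, Meox1, Meox2, Twist1 and Twist2 lie wholly to the right of the bar, those of Pax9 spread across low values, and Pax1 and Tbx18 each have 1 probe set with a mean above the bar and 1 below it.

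The paired-box genes that open the sclerotome programme gave weak signals. The brighter probe set of Pax1 (1449359_at) read 232, 190, 132 and 166 in controls of litters 1 to 4 and 202, 274, 199 and 145 in transgenics. It was above each array's own bar on 8 of 8 arrays, and the 2 groups overlapped. The other Pax1 probe set (1443476_at) never exceeded 37.1 and was above the array's own bar on 0 arrays, so the 2 probe sets of this gene disagree on whether it can be read. None of the 3 probe sets of Pax9, the partner of Pax1, had a mean above the bar. The brightest of them (1421247_at) gave 117, 49.0, 12.2 and 42.1 in controls and 28.6, 131, 105 and 23.7 in transgenics, above the array's own bar on 3 of 8 arrays. The next (1442229_at) was above the array's own bar on 1 array. The dimmest (1421246_at, mean 29.3) was above it on 0 arrays, with a highest signal of 88.6. Nkx3-2, the homeobox gene that Pax1 and Pax9 switch on, gave 90.3, 79.3, 46.9 and 81.9 in controls and 100.5, 87.5, 87.7 and 38.5 in transgenics. It was above the array's own bar on 3 of 8 arrays, and its mean of 76.6 was under the bar of 83.5.

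The pair of Meox homeobox genes, which in the embryo mark the whole somite, was read clearly on every array. Meox1 had signals of 465, 494, 559 and 581 in control arrays and of 337, 482, 527 and 513 in transgenic arrays of litters 1 to 4. Its lowest value came from the transgenic array of litter 1, and the other 7 lay between 465 and 581. The brighter Meox2 probe set (1424234_s_at, whose suffix marks probes shared by more than 1 transcript) gave 906, 1253, 1159 and 1401 in controls and 906, 1152, 1196 and 1050 in transgenics. Both arrays of litter 1 were the lowest for it. The other Meox2 probe set (1424233_at) gave 604, 813, 750 and 775 in controls and 749, 676, 654 and 715 in transgenics, and the groups overlapped for all 3 Meox probe sets.

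The forkhead genes of early paraxial mesoderm were also above background throughout. Foxc1, also known from blood vessel and eye development, had a brighter probe set (1419486_at) with signals of 2119, 2230, 2308 and 1930 in controls and 2284, 2170, 2474 and 2025 in transgenics. Its other probe set (1419485_at) gave 848, 804, 860 and 762 in controls and 909, 957, 933 and 885 in transgenics. In the second probe set every transgenic array was brighter than every control array, while in the first the groups overlapped. Foxc2, which shares many roles with Foxc1 and is needed for lymphatic vessels, gave 495, 455, 526 and 519 in controls and 556, 468, 363 and 431 in transgenics. The transgenic arrays held both its highest and its lowest value.

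Of the Twist genes, Twist1, which holds back bone cell differentiation, gave 318, 409, 392 and 411 in controls and 276, 305, 349 and 351 in transgenics. The transgenic array was the dimmer one in each litter, but the control array of litter 1 lay within the transgenic range. Twist2, its close relative in dermis and mesenchyme, gave 196, 346, 257 and 321 in controls and 310, 298, 239 and 335 in transgenics, with overlapping groups. The T-box gene Tbx18 was read by one probe set (1429974_at) at 111, 102, 130 and 175 in controls and 141, 96.8, 81.7 and 160 in transgenics. That probe set was above the array's own bar on 7 of 8 arrays, and the other Tbx18 probe set (1449871_at), at 24.1 to 53.9, on 0.

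The list of genes around these factors gave a divided picture of the same kind. Of 18 genes of somite segmentation, the clock and boundary genes that act before sclerotome forms, 16 had a probe set with 1 symbol here and 4 of these were above the bar by their brightest probe set. These were Epha4, an ephrin receptor of somite boundaries (257), Dll1, a Notch ligand (170), Lfng, a Notch-modifying enzyme (160), and Tcf15, a somite factor also known as paraxis (134). Tbx6, Msgn1, Mesp2 and Hes7, which are specific to mesoderm that has not yet segmented, had means of 77.4, 44.3, 76.8 and 14.4 and did not pass it. Of hedgehog genes and sclerotome partners 12 of 14 passed, with Ptch1, the hedgehog receptor, at 3554, Gli3, a transcription factor of the pathway, at 2438 and Sox9, the main cartilage factor, at 4435. The exceptions were Uncx (8.65) and Gsc (44.7), homeobox genes of somite and head mesenchyme.

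The other lists passed to unequal extents. Of Twist partners and mesenchymal factors 14 of 15 passed, including Tcf12, an E protein that pairs with Twist proteins (3249), and Snai2, a zinc finger repressor (18371), with Hand2 at 30.5 as the exception. Of the dermomyotome and myotome genes, which belong to the muscle-forming part of the somite, 10 of 14 passed, among them Myog (839), Myf5 (405) and Pax7 (359). Of the forkhead, T-box and homeobox relatives 13 of 21 passed, with Alx1 (1963) and Foxp1 (1169) among those above the bar and Tbx22 (19.4) and Barx2 (18.1) among those under the bar. All 6 genes at the border of rib and tendon passed, Scx (103) and Six2 (96.7) by little. In the other lists Shh (93.0), Hand1 (86.8), Sim1 (88.6), Foxf2 (87.3) and Tbx5 (96.2) also passed by little. The lowest signal of each of these genes was under the bar. The lists count genes by their brightest probe set, as does the share of 64.2% among all named genes, and were not tested against it.

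**Figure D2:**
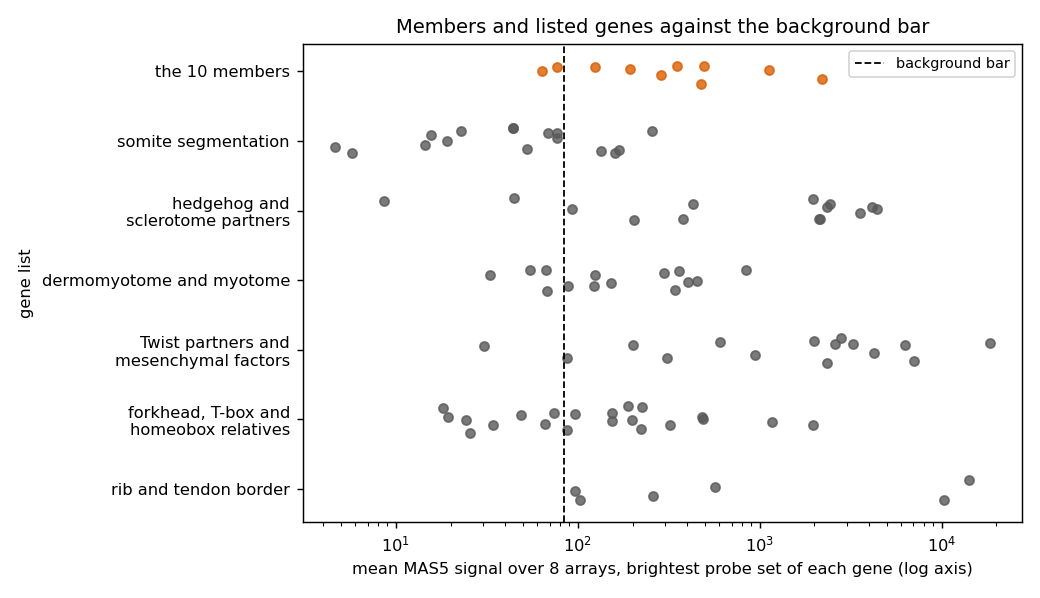
Each dot is a gene, placed at the mean MAS5 signal over 8 arrays of its brightest probe set (log axis), with the background bar of 83.5 dashed. Of the 10 patterning genes in the top row 8 lie above the bar, against 4 of 16 segmentation genes, 12 of 14 hedgehog and sclerotome partners and 14 of 15 Twist partners.

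The comparison of genotypes asks whether these factors differ when Hoxd4, a homeobox factor that patterns the neck part of the spine, is overexpressed. No difference passed the test. Of the 10 tested probe sets 0 had an adjusted p under 0.05 in limma, as had 0% of the 22518 tested in all, and the lowest adjusted p over all of them was 0.57. At an unadjusted p under 0.05 the counts were 0 of 10 and 3.29% of all. The estimates were small: 4 were higher and 6 lower in transgenics, between -0.23 and 0.16 on the log2 scale, with a median of -0.08 against 0.00 for all tested probe sets. All 10 intervals (95%) lay within a 1.5-fold change in either direction, as did those of 85.5% of all tested probe sets. Fold changes are of signal plus 32, which makes those of dim probe sets such as Tbx18 smaller than the change in signal. The intervals of Pax1 (up to 0.57) and Tbx18 (down to -0.57) came close to the 1.5-fold bound. Whether they stay inside it with a smaller added number was not examined. A p that misses the threshold does not show that the groups were alike, and the intervals give what was still possible.

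The lowest of the 10 estimates was that of Twist1 and the highest that of Foxc1. The Twist1 signal averaged 383 ± 44.1 (SD) over 4 control arrays and 320 ± 36.2 (SD) over 4 transgenic arrays. Its log2 fold change was -0.23 (95% interval -0.50 to 0.04, adjusted p = 0.9997 in limma, exact permutation p = 0.086), and transgenic was below control in all 4 litters. The dimmer Foxc1 probe set averaged 819 ± 44.9 (SD) over 4 control arrays and 921 ± 30.8 (SD) over 4 transgenic arrays. Its log2 fold change was 0.16 (95% interval -0.01 to 0.34, adjusted p = 0.9997 in limma), higher in 4 of 4 litters. The exact two-sided permutation p of this probe set was 0.029, the smallest that 4 against 4 arrays allow, and with labels exchanged only within litters the smallest possible is 0.125. The brighter Foxc1 probe set stood at 0.06 on the same scale (95% interval -0.12 to 0.24), higher in 3 of 4 litters, so the 2 probe sets of this gene gave estimates of unequal size.

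The other members had estimates between these. For Meox1 the fitted log2 difference was -0.18 (95% interval -0.47 to 0.12). Transgenic was below control in all 4 litters, with differences of -0.43 in litter 1 and -0.17 to -0.03 in the others. Meox2 had -0.12 and -0.06 for its 2 probe sets, and Foxc2 had -0.14 (95% interval -0.41 to 0.13). Pax1 had 0.16 (95% interval -0.26 to 0.57), with 2 litters higher and 2 lower. Tbx18 had -0.10 and Twist2 0.09, and for each the direction turned when 1 litter was left out: Tbx18 was at 0.03 without litter 3 and Twist2 at -0.08 without litter 1. Over the 10 probe sets, 3 (Foxc1, Meox1 and Twist1) ran the same way in all 4 litters, where 13.4% of all tested probe sets did, and 1 had groups that did not overlap, where 2.27% of all did.

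**Figure D3:**
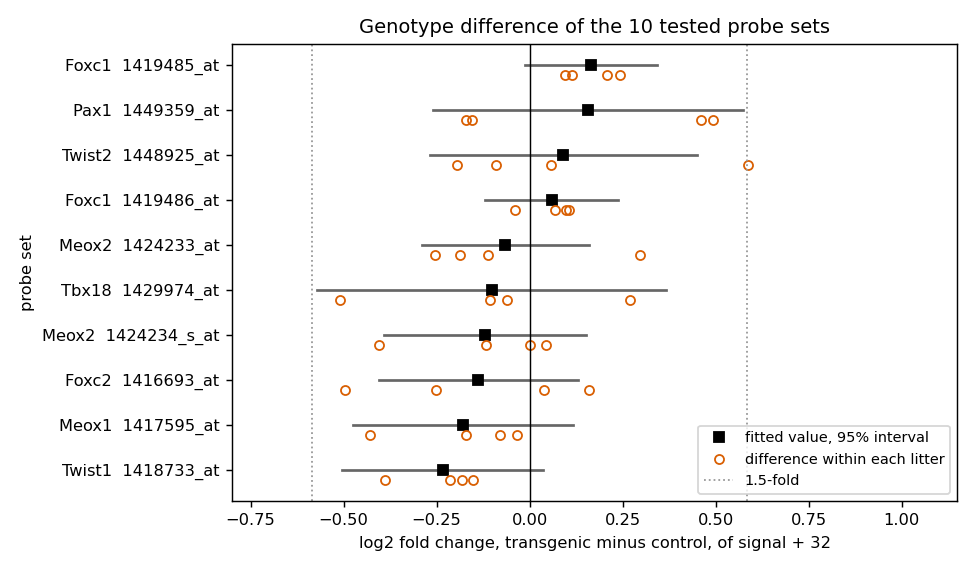
Squares are fitted log2 fold changes (transgenic minus control, signal plus 32) of the 10 tested probe sets with 95% intervals from limma, and open circles the difference within each of 4 litters. Every interval crosses 0 and lies inside the dotted lines at a 1.5-fold change, and the circles of Twist1, Meox1 and the Foxc1 probe set 1419485_at all fall on one side of 0.

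The 6 probe sets under the bar were too dim for that fit and are given as values, from the same model fitted to all 45037 probe sets. Their log2 fold changes lay between -0.09 for Tbx18 and 0.51 for the dim Pax1 probe set, with 0.03 for Nkx3-2 and 0.23, 0.25 and 0.43 for the 3 of Pax9. The value of the dim Pax1 probe set (exact permutation p = 0.057) rests on signals of 4.65 to 37.1. For Nkx3-2 the interval ran from -0.54 to 0.61 and for the brightest Pax9 probe set from -0.69 to 1.16. Since these probe sets were not above background, such values set no limit on a change of the transcripts.

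Twist1 and Meox1 were lower in transgenics in every litter, and so were some sums of cell type markers. They are set side by side for that shared direction, which therefore measures no link. The summed signal of 7 endothelium markers was 1343, 1667, 1510 and 1936 in control and 1140, 1384, 1413 and 1661 in transgenic arrays of litters 1 to 4, and so was lower in 4 of 4 litters. Of 11 cell type lists 3 were lower in transgenics in all 4 litters (endothelium, osteoblast and erythroid) and 0 were higher in all 4. Of all tested probe sets 13.4% ran the same way in all 4 litters, though a sum over genes is not a single probe set. The osteoblast and erythroid sums each rest on 3 of 5 listed genes, with Hba-a1 of the erythroid list under the bar. The part of these 3 cell types in the Twist1 and Meox1 values was not tested. With the Xist level in the fit, Twist1 was at -0.17, Meox1 at -0.04 and the dimmer Foxc1 probe set at 0.16. Without both arrays of litter 4, where the Hoxd4 probe set went against the labels, these 3 values were -0.24, -0.18 and 0.15.

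Around the 10 genes, the genes of the pathway lists gave a similar result. Of 52 tested genes 0 passed the adjusted threshold in limma, 29 were higher and 23 lower, and the median log2 fold change was 0.02. At an unadjusted p under 0.05 there were 3 of 52, against 3.29% of all tested probe sets. These were Myf5, a muscle determination factor, at 0.43 (95% interval 0.07 to 0.79), Id4, an inhibitor of basic helix-loop-helix factors, at 0.19 (95% interval 0.00 to 0.37), and Foxd1, a forkhead factor, at -0.36 (95% interval -0.67 to -0.05). Foxd1 averaged 227 ± 21.5 (SD) over 4 control arrays and 171 ± 22.7 (SD) over 4 transgenic arrays. Of the 13 tested Twist partners and mesenchymal factors 9 were higher and 4 lower, with a median of 0.08. Among them Id3 was at 0.12 and Id2 at 0.15, both inhibitors of the partners of Twist proteins, and Snai1, a repressor of epithelial genes, at 0.26. All 4 tested segmentation genes were higher, with Epha4 at 0.19, Dll1 at 0.13, Lfng at 0.06 and Tcf15 at 0.08.

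For the other lists the estimates were split. Of 11 hedgehog and sclerotome partners 6 were higher and 5 lower (median 0.02), with Nog, a BMP antagonist of the early somite, at 0.20, Gli3 at 0.10, Sox5 at -0.11 and Ptch1 at -0.07. Of 9 dermomyotome and myotome genes 3 were higher and 6 lower (median -0.03), with Pax7 at -0.24, Eya1 at -0.17 and Six4 at -0.11 beside Myf5. Of 11 forkhead, T-box and homeobox relatives 4 were higher and 7 lower (median -0.05), with Alx1 at 0.16, Tbx3 at -0.15 and Tbx15, a close relative of Tbx18, at -0.25. At the border of rib and tendon 3 of 4 tested genes were higher (median 0.05), with Egr1 at 0.08, Mkx at 0.08, Tnmd at 0.02 and Egr2 at -0.09.

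The litters themselves could also be compared, with genotype taken into account. No member passed the adjusted threshold there either. Of the 10 probe sets 0 had an adjusted p under 0.05 in limma's F test of litter, which 0.484% of all tested probe sets had, and 2 had an unadjusted p under 0.05, which 14.6% of all had. These were the brighter Meox2 probe set (unadjusted p = 0.017, adjusted p = 0.24) and Meox1 (unadjusted p = 0.041, adjusted p = 0.32). The litter means of that Meox2 probe set were 906, 1202, 1178 and 1226, and those of Meox1 were 401, 488, 543 and 547. Litter 1 had the lowest mean in 4 of the 10 probe sets (Meox1, both of Meox2 and Twist1), as in 32.2% of all tested probe sets. With the litter as a block, the genotype comparison gave 0 of 10 at an unadjusted p under 0.05, against 5.54% of all, and 0 at the adjusted threshold, against 0% of all.

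Litter 1 also had the lowest summed signal in 7 of 11 cell type lists. It was lowest in 32.2% of all tested probe sets, but a sum over genes is not a single probe set, so the 2 are not like for like. Some of the 7 rest on few genes. The nerve and Schwann sum had 2 of 4 genes and averaged 191 in litter 1 against 193 in litter 2. The adipocyte sum had 1 of 3 genes above the bar, and the erythroid sum had 3 of 5 genes on the array. The endothelium sum averaged 1242 in litter 1 and 1526, 1461 and 1799 in litters 2, 3 and 4, and the perichondrium and fibroblast sum 168560 against 194937, 186707 and 179587. The chondrocyte sum was 337614 in litter 1 and 333082, 337684 and 336864 in the others, so it was not the lowest there. Of the listed pathway genes 1 of 52 differed between litters at the adjusted threshold, Tnmd, a tendon and ligament glycoprotein (adjusted p = 0.0072 in limma), against 0.484% of all tested probe sets. Its 2 lowest signals, 7747 and 7816, were those of litter 1. At an unadjusted p under 0.05 there were 10 of 52, against 14.6% of all. The part of these cells in the Meox values was not tested.

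**Figure D4:**
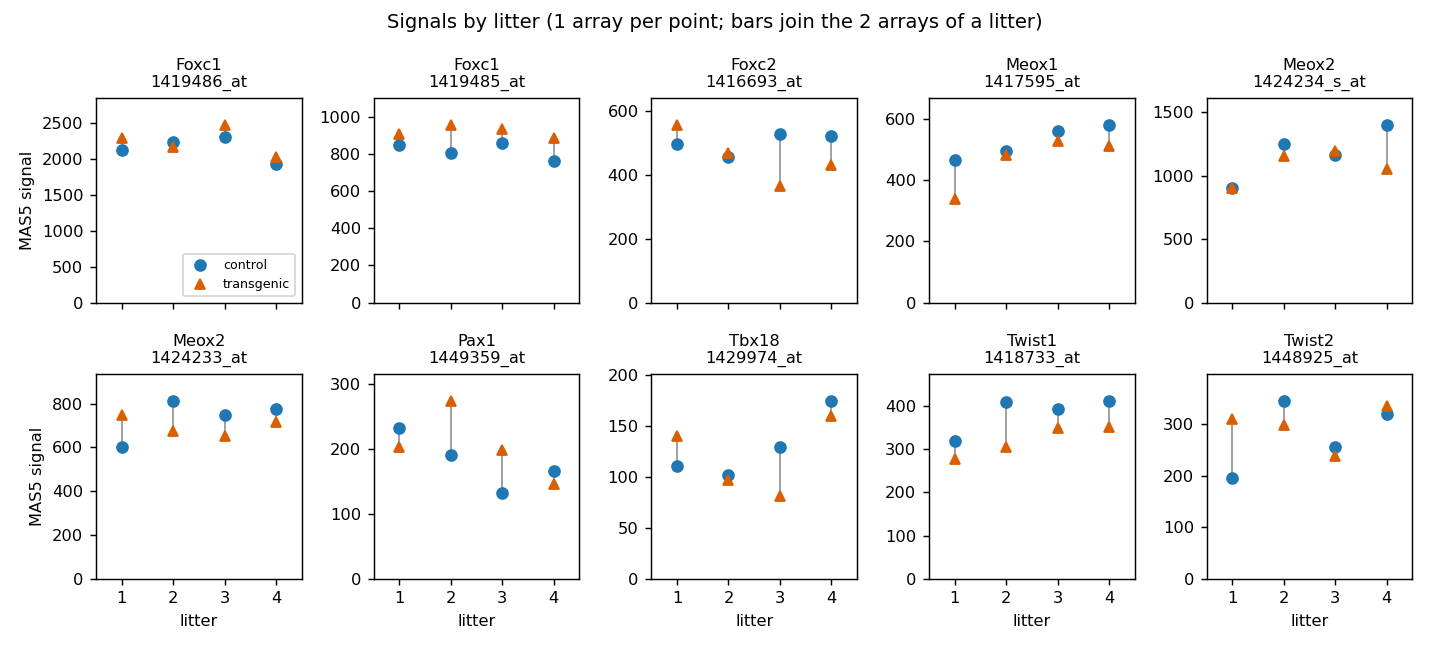
Each panel shows the MAS5 signal of a tested probe set (linear axis from 0) in the control array (circle) and the transgenic array (triangle) of each of 4 litters, joined by a bar. The triangle lies below the circle in all 4 litters for Twist1 and Meox1 and above it for the Foxc1 probe set 1419485_at, and both arrays of litter 1 are the lowest for the Meox2 probe set 1424234_s_at.

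Across the 8 arrays Meox1, Meox2 and Twist1 gave the 3 highest values of r among the pairs, and no pair passed the adjusted threshold. Among 28 pairs of the 8 readable genes, computed after the values were seen, Meox1 and Twist1 had Pearson's r = 0.82 (exact permutation p = 0.0049, adjusted p = 0.14) and Spearman's rho = 0.81 (exact permutation p = 0.022, adjusted p = 0.26). Meox2 and Twist1 had r = 0.80 and rho = 0.79 (exact permutation p = 0.020 and 0.028, adjusted p = 0.18 and 0.26), and Meox1 and Meox2 had r = 0.76 and rho = 0.76 (exact permutation p = 0.018 and 0.037, adjusted p = 0.18 and 0.26). In a check, the 2 arrays farthest from the median of the pair's alphabetically first gene were left out. These 3 values of r were then 0.59, 0.60 and 0.50, and without litter 1 instead they were 0.62, 0.60 and 0.51. The lowest r was that of Foxc1 and Tbx18, at -0.73 (exact permutation p = 0.041, adjusted p = 0.29) and rho = -0.62 (exact permutation p = 0.11, adjusted p = 0.54), and r was -0.22 without the 2 farthest arrays. By rank the lowest were Pax1 with Meox1 and Pax1 with Twist1, both with rho = -0.74 (exact permutation p = 0.046, adjusted p = 0.26). Their r was -0.43 and -0.61 (exact permutation p = 0.30 and 0.11, adjusted p = 0.88 and 0.50). Without the 2 farthest arrays r was -0.79 and -0.46, with these arrays taken from Meox1 in the first pair and from Pax1 in the second. The 8 arrays share 4 litters, which these values of p do not take into account.

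Probe sets of the same gene followed each other only loosely. The 2 of Foxc1 had r = 0.57 and rho = 0.48 (exact permutation p = 0.14 and 0.24) and the 2 of Meox2 r = 0.50 and rho = 0.64 (exact permutation p = 0.20 and 0.096), with an adjusted p of 0.20 for r over the 2 pairs. Without the 2 arrays farthest from the median of the brighter probe set, r was -0.10 for Foxc1 and 0.48 for Meox2.

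For each readable gene the 3 other genes with the most similar profile over the 8 arrays were listed by Pearson's r among all tested probe sets, as a description. Meox1 was most like Mgat5, Emcn, a sialomucin of blood vessel lining, and Zeb2, a zinc finger repressor of mesenchyme (r = 0.98, 0.97 and 0.96). Twist1 was most like Smarcd2, Pdgfb and Hdac10 (0.97, 0.96 and 0.95), and Meox2 most like Lgi2, Tnrc6a and Urah (0.99, 0.97 and 0.97). Foxc1 was most like Vdr, the vitamin D receptor, Scfd1 and Gpkow (0.98, 0.96 and 0.96), and Foxc2 most like Rnf170, Aasdhppt and Tmc8 (0.96, 0.95 and 0.94). Pax1 was nearest to Lcmt2, C1qtnf4 and Ptms (0.98, 0.97 and 0.96), Tbx18 to Depdc1a, Vps54 and Atic (0.99, 0.96 and 0.95) and Twist2 to N4bp2, Nfib and Gm26910 (0.97, 0.96 and 0.96). With 8 arrays and 22518 probe sets to choose from, the nearest genes are the extremes of a very large choice, and no member was among the 3 nearest of another.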

How the data were processed

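The deposited intensities are MAS5 signals per probe set on a linear scale, per the submitters' processing notes. No MAS5 version, detection call or scan setting was used here. The values show a mean of 500.0 on each array without the top and bottom 2%. Per the labels, biotin-labelled RNA of each litter's genotype group was hybridised to its own array.

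From these, 64 control probe sets were left out, and 45037 were used as log2(signal + 32), where 32 is the rounded median over arrays of the 25th percentile. The 22518 with a mean signal above the median over probe sets (106) were tested with limma 3.58.1 (statmod 1.5.0, R 4.3.3; lmFit, eBayes with intensity trend), with p-values adjusted by Benjamini-Hochberg over the whole tested set. Litters were tested by an F test in a fit with litter and genotype. Single values used exact two-sided permutation tests over arrays. Same-numbered arrays are paired: their descriptions share a number, and the design text says that each litter was divided by genotype. Correlations of their deviations from the group means were 0.28, 0.17, 0.04 and 0.14, and the chosen fit has no block. The fits were first tested on simulated data. Median signal per array was 100.5 to 115.1, rank correlations between arrays were 0.932 to 0.942, and 0 pairs were identical. Precision is limited by 4 arrays per group: intervals of the 10 probe sets reached a median of 0.27 to either side. How many embryos an array stands for is not stated, so p-values measure the spread between litter groups.

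Probe sets were named by the platform annotation (34945 with 1 symbol, 932 with several, 9160 with none here). Looking symbols up again by gene identifier in RefSeq (GRCm38.p6) changed 0, and 0 probe sets were shared between a member and another gene. Named genes are the 10 members, the 3 most similar genes of each, and up to 4 genes of each pathway list with the smallest p. Genes shown only with their level against background, and Tnmd for the litters, were chosen after their values were seen. Members and lists were chosen with earlier results of these data known. Of 94 listed pathway genes 86 had a probe set with 1 symbol, and the rest were not analysed here. Alternatives took in a fixed and a random litter block, constants of 16 and 64, other filters, quantile normalization, median centring, no trend, permutation and each array or litter left out. The Xist covariate and the pairs of members were added after seeing the data. Plots used matplotlib 3.10.9 (Python 3.11.15).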

Additional observations from a re-analysis of the deposited data

How the results depend on the processing

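Under 28 alternatives of the genotype comparison 0 of the member probe sets tested passed the adjusted threshold, and likewise under 8 of the litter comparison. The stricter filter left 5 of the 10 and leaving out shared probe sets 9, and the permutation test, with a smallest p of 0.029 before adjustment, could hardly pass and says nothing of stability. Of 274 single fold changes under these alternatives 265 kept their direction, among them all of Foxc2, Meox1, both Meox2 probe sets, Pax1 and Twist1. Many of the 274 could not turn. A litter block, another filter, no trend or the permutation test leaves the fold change of a probe set as it was. A block after leaving out a litter repeats the value without it, so the count does not measure stability. Twist1 ranged from -0.31 to -0.17 and the dimmer Foxc1 probe set from 0.13 to 0.19. Others came near 0: Meox1 ranged from -0.24 to -0.04 (without transgenic replicate 1), Pax1 from 0.03 (without transgenic replicate 2) to 0.29, Foxc2 from -0.24 to -0.02 (without litter 3), and the Meox2 probe sets from -0.24 to -0.02 (without litter 4) and from -0.19 to -0.0016 (without litter 2). At an unadjusted p under 0.05 at most 2 of 10 were counted. Without control replicate 1 these were Twist1 and the brighter Meox2 probe set. With a random litter block they were the dimmer Foxc1 probe set and Twist1. The share of all tested probe sets under these settings was not computed, so these counts are no result about the members. No alternative with the replicate block changed a call. As a fixed block it could not move the estimates (0.16 for the dimmer Foxc1 probe set and -0.23 for Twist1), since each litter holds both genotypes. With it 0 passed.

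With the Xist level as a covariate, added after seeing the data, the brighter Foxc1 probe set turned to -0.048 and Tbx18 to 0.056. Leaving out arrays, Tbx18 turned without control replicate 4 (0.023), transgenic replicate 3 (0.026) or both arrays of litter 3 (0.033, with or without the replicate block). Twist2 turned without control replicate 1 (-0.052) or both arrays of litter 1 (-0.076, with or without the replicate block). The cause was not tested. The count of probe sets above the background bar was 10 or 11 under every bar and with each array left out. The correlation of probe sets of 1 gene was 0.62 for Foxc1 and 0.46 for Meox2 once group means were taken off. Dim probe sets of Pax9 and Nkx3-2 limit what can be said of these genes.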
